A study of Mus musculus with 10 samples.

Results

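The Serpinb, Psg, Skint and Pramel genes are 4 mouse families that sit in tandem arrays, and the ATAC-seq peaks in and around them were compared between Smchd1-deleted and control neural stem cells. The members were the 29 Serpinb, 13 Psg, 11 Skint and 48 Pramel genes of a RefSeq gene table, chosen by symbol, which makes 101 of the 49939 genes in that table. A peak belonged to a family when its summit lay in a member gene or within 50 kb of it, and each peak was counted once. By this rule 614 of the 423900 peaks in the 4 deposited lists belonged to the families. They were 180 peaks in deleted females, 167 in control females, 133 in deleted males and 134 in control males, and joined into 259 sites by overlap. The families had been picked because earlier results of the same lists showed changed peaks near them, so the counts below describe them and test nothing.

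ATAC-seq marks open chromatin by letting the Tn5 transposase insert sequencing adapters into accessible DNA. The cells were neural stem cell lines of the strain C57BL/6, grown from E14.5 embryos that carried floxed Smchd1 in all groups. Smchd1 is a chromatin protein with a role in X inactivation and in the silencing of some autosomal gene clusters. The deleted groups, Smchd1 del/del, had 3 female and 2 male libraries, and the control groups, Smchd1 fl/fl, had 3 female and 2 male libraries. The Cre recombinase came from the retrovirus MSCV-Cre-puro, puromycin was added after 24 h, and cells were taken on day 7. The control libraries carry the same protocol text, and the labels do not say whether those cells were transduced with a vector. The description of the male libraries reads female, while their titles and sex field read male, and the titles were followed. Which part of Smchd1 was deleted is not given, so no peak checks the deletion.

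The libraries of a group were pooled before peaks were called, which left 1 list per group and no replicate error for any value below. The lists rested on 139318421 tags in deleted females and 144613215 in control females, and on 74674218 tags in deleted males and 91734730 in control males. Because the lists differed in length, each was reduced to its 88159 strongest peaks by the authors' −log10 q, which left the male deleted list whole. The weakest peak kept had a −log10 q of 4.27 in deleted females and 6.59 in control females, and of 1.39 in deleted males and 4.52 in control males. The reduced deleted lists therefore hold weaker peaks than the reduced control lists. A peak within 1 kb of a gene end was found for 16 of 17 neural stem cell markers in deleted females and 15 in control females, and for 16 in deleted males and 16 in control males. Pax6 lacked such a peak in all 4 lists. Most trophoblast markers lacked one too, with 2, 1, 1 and 1 of 8 in deleted females, control females, deleted males and control males. In that order, counts were 6, 5, 6 and 6 of 8 for neuron and 5, 4, 5 and 4 of 6 for fibroblast markers. They were 4, 4, 3 and 3 of 8 for keratinocyte and thymic epithelium markers. Germ cell and oocyte markers had 4, 3, 2 and 3 of 9. Oligodendrocyte markers had 3 of 6 and microglia and blood markers 1 of 6 in each list. Endothelium markers had 3, 3, 3 and 2 of 5. Such peaks were not particular to neural stem cell markers.

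Serpinb genes encode the clade B serpins, protease inhibitors that mostly act inside the cell, such as Serpinb9, which inhibits granzyme B. Psg genes encode the pregnancy-specific glycoproteins, immunoglobulin-domain proteins that placental trophoblast secretes. Skint genes encode membrane proteins related to butyrophilins, and Skint1 in the thymus is needed for a class of epidermal γδ T cells. Pramel genes encode leucine-rich-repeat proteins related to the tumour antigen PRAME and are known mainly from germ cells and early embryos. All 4 families have multiplied in rodents by local duplication, which leaves near-identical copies beside each other.

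Promoter windows of the families were short of CpG, and few held a peak. RefSeq promoter windows of GRCm38.p6, from 250 bases before to 50 bases after the start, were at hand for 26 of 29 Serpinb, 10 of 13 Psg, 11 of 11 Skint and 38 of 48 Pramel genes. The median window held 2 CpG in Serpinb and in Psg genes and 1 in Skint and in Pramel genes, against 7 over all genes. Of the 32 Serpinb windows, 5 overlapped a peak in deleted females and 4 in control females, and 5 in deleted males and 5 in control males. No window of a Psg, Skint or Pramel gene overlapped a peak in any of the 4 reduced lists, whereas 46.8%, 47.1%, 46.1% and 46.3% of all windows did in deleted females, control females, deleted males and control males. No window was at hand for Serpinb13, Serpinb1a, Psg16 and Pramel12, which had a peak within 1 kb of a gene end in all 4 lists. The window counts therefore leave these genes out. The window of Serpinb1b (chr13:33083853-33084152) held no peak, and the peak at the start of its gene record, found in all 4 lists, lay outside it. The first 3 sequences are Serpinb windows that held a peak in all 4 lists. The last 2 belong to members whose gained peaks, described further on, lay outside this window. Capitals mark each CG and each match to TGANTCA, the AP-1 motif, searched on both strands, and the windows are 5′ to 3′ on the gene's strand.
Serpinb8: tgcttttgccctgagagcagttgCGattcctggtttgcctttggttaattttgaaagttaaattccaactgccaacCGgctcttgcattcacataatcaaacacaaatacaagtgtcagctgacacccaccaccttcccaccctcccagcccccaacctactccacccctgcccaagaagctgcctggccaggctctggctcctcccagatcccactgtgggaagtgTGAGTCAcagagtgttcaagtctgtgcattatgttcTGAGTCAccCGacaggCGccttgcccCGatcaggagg
Serpinb9: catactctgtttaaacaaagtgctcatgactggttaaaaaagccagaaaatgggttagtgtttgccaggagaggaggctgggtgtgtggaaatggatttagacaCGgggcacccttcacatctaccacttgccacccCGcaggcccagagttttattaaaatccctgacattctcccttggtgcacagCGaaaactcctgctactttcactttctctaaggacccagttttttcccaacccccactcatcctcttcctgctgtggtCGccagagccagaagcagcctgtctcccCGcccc
Serpinb6a: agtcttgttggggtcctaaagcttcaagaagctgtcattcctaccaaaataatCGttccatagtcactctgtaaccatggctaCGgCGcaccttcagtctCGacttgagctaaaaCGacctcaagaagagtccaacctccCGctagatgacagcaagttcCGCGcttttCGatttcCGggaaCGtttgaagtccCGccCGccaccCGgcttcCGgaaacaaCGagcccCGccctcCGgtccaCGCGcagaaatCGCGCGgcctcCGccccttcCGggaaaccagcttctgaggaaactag
Psg28: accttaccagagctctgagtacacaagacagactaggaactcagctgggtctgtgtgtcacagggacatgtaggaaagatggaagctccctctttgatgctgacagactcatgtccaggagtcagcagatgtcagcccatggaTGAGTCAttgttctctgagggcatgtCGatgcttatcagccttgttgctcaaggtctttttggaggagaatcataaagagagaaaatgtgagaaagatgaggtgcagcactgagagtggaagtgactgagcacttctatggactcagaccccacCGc
Pramel13: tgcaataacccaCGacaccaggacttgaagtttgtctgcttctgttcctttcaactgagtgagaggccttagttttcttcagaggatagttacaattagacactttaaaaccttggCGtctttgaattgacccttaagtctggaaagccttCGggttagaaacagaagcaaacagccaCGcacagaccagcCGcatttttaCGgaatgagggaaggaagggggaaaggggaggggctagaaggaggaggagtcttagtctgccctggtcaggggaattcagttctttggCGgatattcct
The Serpinb8 window (chr1:107589756-107590055, plus strand) held 5 CpG and 2 matches to TGANTCA, and its peak had a −log10 q of 83.4 and 83.5 in deleted and control females, and of 80.2 and 72.5 in deleted and control males. Serpinb8 is an intracellular serpin that inhibits furin, as known from the human protein. The Serpinb9 window (chr13:33004291-33004590, plus strand) held 5 CpG, and its peak had fold enrichments, the authors' ratio of tags at the summit over the local background, of 9.73 and 10.1 in deleted and control females, and of 13.6 and 11.3 in deleted and control males. The Serpinb6a window (chr13:34002745-34003044, minus strand) was the richest of the 5, with 25 CpG. The summit of its peak also lay in the protein-coding gene Ripk1, and that of the Serpinb9 peak in the long noncoding RNA gene Gm36181. The Psg28 window (chr7:18432006-18432305, minus strand) held 2 CpG and 1 TGANTCA, and the Pramel13 window (chr4:144408415-144408714, minus strand) held 7 CpG. TGANTCA stood in 8 of 32 Serpinb, 4 of 11 Psg, 1 of 12 Skint and 9 of 38 Pramel windows, and in 7.81% of all windows.

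In the lists of equal length, the families had more peaks in deleted cells than in controls of either sex. Over the 4 families there were 140 peaks in deleted females and 89 in control females, a log2 ratio of 0.65 (95% exact binomial interval 0.26 to 1.05, counting error only). In males there were 133 in deleted and 93 in control cells, a log2 ratio of 0.52 (0.12 to 0.91). The numbers differed most at the Pramel array of chromosome 5 and among the Psg genes beside Psg28. These are bulk libraries, so a site open in all cells of a group and a site open in some of them cannot be told apart. At the same −log10 q limit, at least 10, the peak counts were closer, but the control lists held more peaks in total than the deleted lists. This limit is not a common strength, since a fold of 4.43 could have a −log10 q of 9.95 in deleted males and 11.8 in control males. In females they were then 34 in deleted and 34 in control cells for Serpinb, 18 and 11 for Psg, 9 and 8 for Skint and 17 and 13 for Pramel. In males they were 28 in deleted and 30 in control cells for Serpinb, 12 and 11 for Psg, 9 and 7 for Skint and 12 and 9 for Pramel. As shares of each list, the log2 ratios in this order of families were 0.35, 1.06, 0.52 and 0.74 in females. They were 0.17, 0.4, 0.63 and 0.68 in males. Those of Serpinb and Psg in females and Skint in males were above the equal-length ratios given below, and the others were under them. In the lists as deposited the totals were also closer, with 180 in deleted and 167 in control females, and 133 in deleted and 134 in control males.

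**Figure D1:**
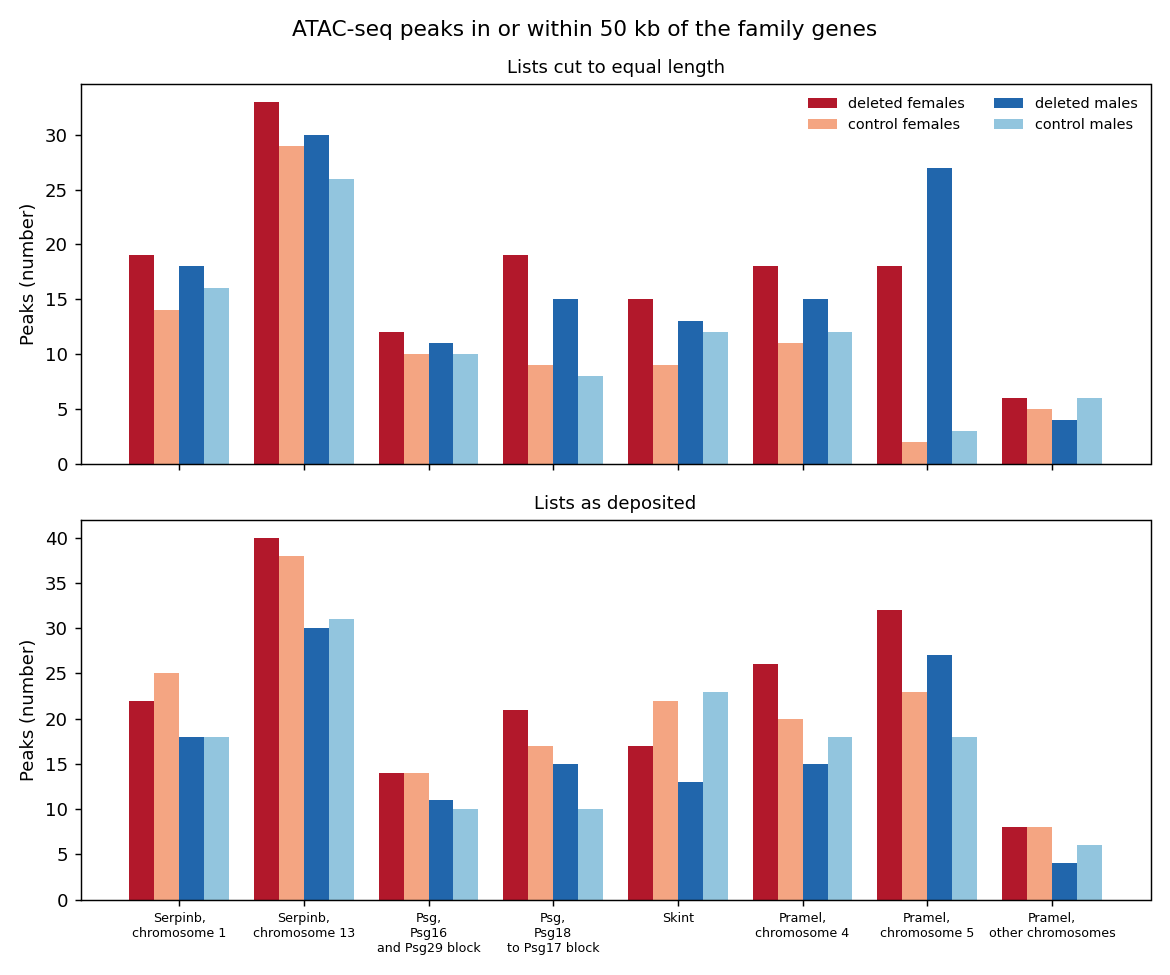
Number of ATAC-seq peaks in or within 50 kb of the genes of each array, in the 4 lists reduced to the same length (top) and as deposited (bottom). Bars are counts from 1 pooled list per group, with no replicate error. On chromosome 5 the Pramel array had 18 and 2 peaks in deleted and control females and 27 and 3 in deleted and control males in the reduced lists.

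Strong peaks absent from the reduced control list were found near all 4 families, and strong peaks absent from the reduced deleted list near none of them. The Skint peak among them was weakly present in both control lists as deposited. Gained meant that a peak ranked within the first 44079 of the deleted list and overlapped none of the 88159 peaks of the control list, and lost the reverse. In females 11 of the 60 family peaks that could be called were gained, 18.3% (95% exact binomial interval 9.52 to 30.4), against 1.12% of all such peaks. In males 6 of 56 were gained, 10.7% (4.03 to 21.9), against 0.83% of all. These intervals cover counting error only and take peaks as independent. Some of the 11 female peaks lie side by side near Psg28, and others at matching places of a pair of pseudogenes. In both sexes 5 were gained, where 0.299% of all such peaks were. Lost peaks numbered 0 of 43 in females, where 0.44% of all were lost, and 0 of 42 in males, where 1.1% were lost. The counts of 0 allow shares of up to 6.98% and 7.14%, above those backgrounds, so they do not set the families apart. The lost calls shared by the sexes were 0.0295% of all peaks and 0 in the families.

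By family, 4 of the 31 callable peaks near Serpinb genes were gained in females, 4 of 11 near Psg genes, 1 of 6 near Skint genes and 2 of 12 near Pramel genes. In males the numbers were 2 of 28, 2 of 10, 1 of 8 and 1 of 10 in the same order of families. Just inside the limit of 44079 in deleted females lay a Serpinb1c peak at rank 43892, and just outside it a Serpinb6a peak at rank 44693, with folds of 3.83 and 3.86. In control females a Pramel12 peak at rank 43102 stood inside and a Psg16 peak at 44086 outside. In deleted males a Pramel4 peak at 43242 stood inside and a Psg16 peak at 44134 outside, and in control males a Serpinb1a peak at 43581 inside and a Psg16 peak at 44405 outside. At the distance limit, a peak 49.5 kb from Pramel3 was inside and a peak 51.0 kb from Psg17 outside.

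The Serpinb genes form an array on chromosome 1 from Serpinb5 to Serpinb8 (12 genes) and another on chromosome 13 from Serpinb1a to Serpinb6a (17 genes). Their peak numbers were much alike, with 52 in deleted and 43 in control females and 48 in deleted and 42 in control males in the equal-length lists, log2 ratios of 0.27 (−0.34 to 0.89) and 0.19 (−0.44 to 0.83). As deposited the numbers were 62 and 63 in deleted and control females and 48 and 49 in deleted and control males. A peak stood within 1 kb of an end of 8 Serpinb genes in deleted and 7 in control females, and of 6 in deleted and 6 in control males. Peaks within 1 kb of a gene end stood in all 4 lists at Serpinb5 (maspin), Serpinb13, Serpinb8, Serpinb1a, Serpinb1b and Serpinb6a. The Serpinb6a peak also lay in Ripk1. Serpinb1a is an inhibitor of neutrophil elastase, and Serpinb6a inhibits trypsin-like and chymotrypsin-like proteases. No peak lay within 50 kb of Serpinb9g, Serpinb6d or Serpinb6e in the equal-length lists.

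The clearest Serpinb gains lay in the Serpinb3 and Serpinb9 subclusters. A peak 1.67 kb from Serpinb9d (chr13:33205470-33205804, mm10) had a fold of 5.75 in deleted females, without a counterpart in control females. In deleted males its fold was 5.72, and the control male list held it at 2.87 and rank 90915, beyond the equal length. It was the only peak of the equal-length lists nearest to Serpinb9d, and was gained in both sexes. Serpinb9d is a rodent relative of the granzyme B inhibitor Serpinb9. At Serpinb9 itself, the window shown above was open in all 4 lists.

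The other shared Serpinb gain lay 25.2 kb from Serpinb3c, 7.57 kb from the pseudogene Gm15390 (chr1:107245849-107246208). Its fold was 4.93 and 5.15 in the deleted female and male lists, and neither control list held it. A peak 23.7 kb from Serpinb3b (chr1:107130065-107130515) stood at the matching place of the pseudogene Gm15388, also 7.57 kb away. It had a fold of 5.67 in deleted females with none in control females, and of 6.44 in deleted males against 3.23 in control males. It was called gained in females only, because the control male peak stood within the equal length, at rank 79427. A neighbouring pair of peaks at the same pseudogenes was present in all 4 lists, with folds of 4.11 and 3.70 in deleted females, 4.21 and 3.49 in control females, 3.72 and 3.43 in deleted males and 4.43 and 4.67 in control males. Serpinb3 genes are the mouse relatives of the human squamous cell carcinoma antigens, which inhibit cysteine and serine proteases.

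Serpinb1b carried 2 kinds of difference. A peak inside the gene (chr13:33085392-33085998) was gained in females, with a fold of 4.85 in deleted females, while the control female list held it at 2.86 and rank 92861. In males it had a fold of 5.64 in deleted and 3.23 in control cells and was not called. The peak at the gene's start (chr13:33078215-33078721) was present in all 4 lists and ranked higher in both deleted lists. Its rank was 1268 in deleted females and 9790 in control females, a ratio of control over deleted rank of 7.72, and 6647 in deleted males and 16765 in control males, a ratio of 2.52. Serpinb1b is a close relative of Serpinb1a.

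Among the 64 family sites present in all 4 equal-length lists, 3 ranked at least 2 times better in the deleted list of both sexes, and all 3 were Serpinb sites. Over all genes 0.638% of such sites did so. Beside the Serpinb1b start these were a site inside Serpinb13 (chr1:107000449-107000917) and the Serpinb8 start. The Serpinb13 site ranked 3187 in deleted and 6747 in control females and 4139 in deleted and 9845 in control males. The Serpinb8 site ranked 1485 in deleted and 3007 in control females and 1641 in deleted and 3997 in control males. SERPINB13 in humans inhibits cathepsins in keratinocytes. No family site ranked at least 2 times worse in the deleted lists of both sexes, where 0.338% of all sites did.

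Some strong shared sites moved as far in 1 sex alone. The Serpinb9 site ranked 1360 in deleted and 1036 in control females, and 763 in deleted and 1726 in control males, so the order differed between the sexes. The site 6.95 kb from Pramel32 ranked 5970 in deleted and 14051 in control females, and 9495 in deleted and 14051 in control males. Over the families, 51 of 79 sites shared by the female lists and 42 of 74 shared by the male lists ranked better in the deleted list, against 48.2% and 50.5% of all shared sites. The median ratio of control over deleted rank was 1.13 in females and 1.1 in males for the families, and 0.987 and 1.0 over all sites.

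**Figure D2:**
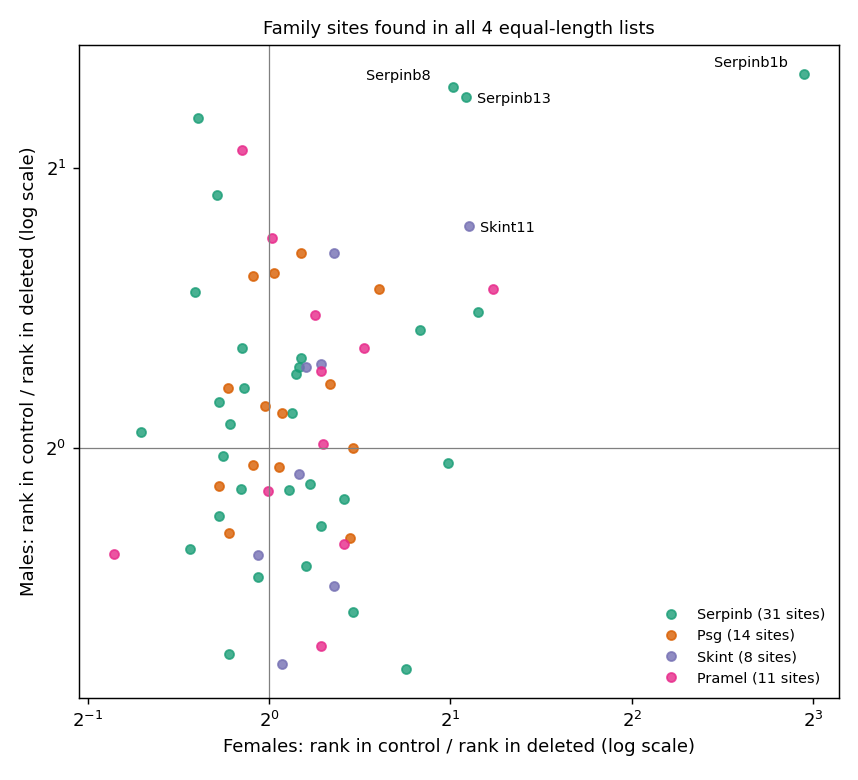
Ratio of a site's rank in the control list to its rank in the deleted list, in females (horizontal) and males (vertical), both on log2 axes, for the 64 family sites present in all 4 equal-length lists. Each point is a site, coloured by family. Points above 1 rank better in deleted cells, and the Serpinb1b start stands apart at 7.72 in females and 2.52 in males.

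The Psg genes lie on chromosome 7 in a block of 2 genes, Psg16 and Psg29, and a block of 11 genes from Psg18 to Psg17. In the equal-length lists the family had 31 peaks in deleted and 19 in control females and 26 in deleted and 18 in control males. The log2 ratios were 0.71 (−0.16 to 1.61) and 0.53 (−0.39 to 1.48), with intervals for counting error only. The Psg16 and Psg29 block was alike, with 12 and 10 peaks in deleted and control females and 11 and 10 in deleted and control males. Psg16, which is also expressed in brain, had a peak at its end in all 4 lists, with folds of 3.78, 4.29, 5.29 and 4.19 in deleted females, control females, deleted males and control males. The longer block had 19 and 9 peaks in deleted and control females and 15 and 8 in deleted and control males.

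The difference in the longer block lay at its low-coordinate end. From Psg18 to Psg25 there were 8 peaks in deleted females against 1 in control females, and 7 in deleted males against 1 in control males. From Psg27 to Psg17 there were 11 and 8 in deleted and control females and 8 and 7 in deleted and control males. This division was made after the values were seen and is a description. As deposited, the first stretch had 9 and 3 peaks in deleted and control females and 7 and 1 in deleted and control males.

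Below Psg28, peaks stood close together in deleted cells. The strongest lay 19.5 kb from the gene (chr7:18402559-18403427) and had a fold of 7.40 in deleted females with no counterpart in control females. In deleted males its fold was 7.30, and in control males 2.99 with a −log10 q of 4.52, the value at which that list was limited, so its call in males depended on how ties were ordered. The next, 18.4 kb from Psg28 (chr7:18403813-18404278), had folds of 4.78 and 4.88 in the deleted female and male lists and was in neither control list as deposited. Between them a peak 18.9 kb from Psg28 (chr7:18403546-18403719) was in the deleted female list alone, with a fold of 3.76, and was gained there. A weaker site 25.8 kb away had folds of 3.78 and 4.58 in the deleted female and male lists and was also absent from both control lists.

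Farther along, the peak 16.3 kb from Psg26 (chr7:18458203-18458491), beside the pseudogene Gm8314, was gained in females with a fold of 4.02, and had 4.43 in deleted males and no counterpart in either control list. It was not called in males because it ranked 47529. The peak 8.04 kb from Psg25, inside the pseudogene Gm4880 (chr7:18511545-18511785), had the highest fold of the gained peaks, 8.73 in deleted males, with none in control males. In females its fold was 6.32 in deleted and 3.02 in control cells, where it ranked 83804 and so stayed within the equal length. Towards Psg17 the strong sites were shared. The site 9.59 kb from Psg19 (chr7:18778969-18779918) had folds of 7.61 and 8.09 in deleted and control females and 9.87 and 8.18 in deleted and control males.

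**Figure D3:**
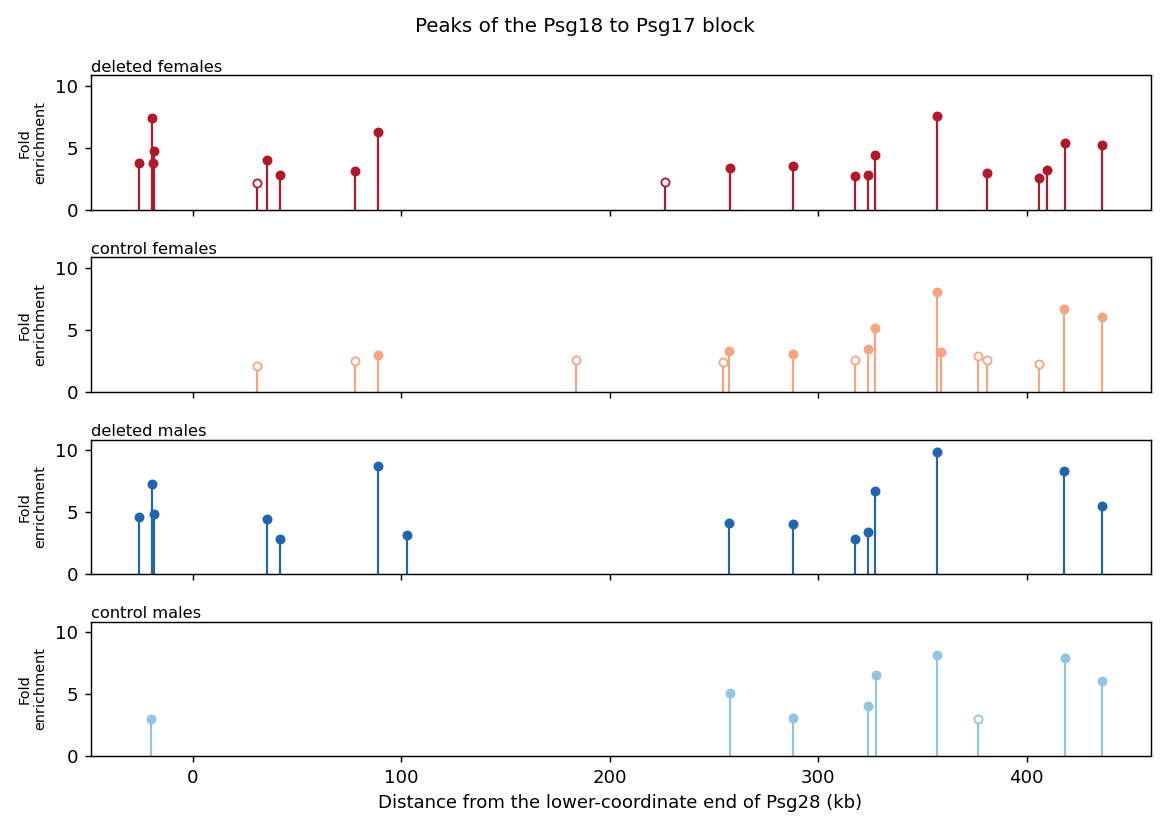
Peaks of the Psg18 to Psg17 block, plotted by distance from the lower-coordinate end of Psg28 (horizontal, kb) with the authors' fold enrichment (vertical), 1 panel per list. Filled points are within the 88159 strongest peaks of the list and open points beyond them. The stretch near Psg28, Psg26 and Psg25 held 8 filled peaks in deleted females against 1 in control females and 7 in deleted males against 1 in control males.

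The 11 Skint genes lie on chromosome 4 and had few peaks, 15 in deleted and 9 in control females and 13 in deleted and 12 in control males in the equal-length lists, log2 ratios of 0.74 (−0.55 to 2.11) and 0.12 (−1.13 to 1.38). As deposited the order was the reverse, with 17 peaks in deleted and 22 in control females and 13 in deleted and 23 in control males, so no direction holds for the family. A single place was gained in both sexes, 34.6 kb from Skint11 (chr4:114128598-114129232). Its fold was 6.49 in deleted females and 2.62 in control females, and 4.72 in deleted males and 2.87 in control males, and both control peaks lay beyond the equal length, at ranks 104576 and 92002. A second Skint11 site, inside the gene (chr4:114172803-114173215), was in all 4 lists and ranked 15050 in deleted and 32286 in control females, and 23278 in deleted and 40342 in control males. No Skint gene had a peak within 1 kb of an end in these lists. The best-ranked other sites counted here lay in Slc5a9, a sugar transporter gene next to Skint8, or 5.31 kb from it, and were shared by all 4 lists. A site 13.8 kb from Skint6 and a site inside Skint6 ranked 41252 and 41524 in deleted males. A site 11.2 kb from Skint8 ranked 42180 in control males. These sites were in all 4 lists too.

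The Pramel genes had more peaks in deleted than in control cells when the lists had equal length. There were 42 peaks in deleted and 18 in control females and 46 in deleted and 21 in control males in the equal-length lists, log2 ratios of 1.22 (0.39 to 2.11) and 1.13 (0.36 to 1.95). Most of it came from the 18 genes on chromosome 5, with 18 and 2 peaks in deleted and control females and 27 and 3 in deleted and control males. The 25 genes on chromosome 4 had 18 and 11 in deleted and control females and 15 and 12 in deleted and control males. The other chromosomes had 6 and 5 in deleted and control females and 4 and 6 in deleted and control males. Without chromosome 5, left out after the values were seen, the male log2 ratio was 0.08, from 19 peaks in deleted and 18 in control cells, and the female ratio was 0.58.

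Every peak of the chromosome 5 array was weak, and none of them in any of the 4 lists was among the 44079 strongest. Their median fold was 3.04 in deleted and 3.65 in control females and 3.43 in deleted and 3.11 in control males. As deposited, the array had 32 peaks in deleted and 23 in control females and 27 in deleted and 18 in control males, so the ratio depends strongly on where the control lists are limited. The clearest positions were those in both deleted lists and in neither control list as deposited. They do not depend on the reduction to equal length. They still depend on the length of the deposited lists, of which the control list was the longer in each sex. There were 11 such positions among 56 sites, 19.6%, and 1 site of the reverse kind, 1.79%. Over all genes 0.984% of sites were in both deleted lists alone and 5.59% in both control lists alone. Those shares cover sites of every strength, while the chromosome 5 sites were weak.

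These 11 sites lay near Pramel33, Pramel34, Pramel36, Pramel37, Pramel40, Pramel42, Pramel47 and Pramel49. The site 0.068 kb from the end of Pramel34 had folds of 2.38 and 3.43 in the deleted female and male lists. The site with the highest fold in deleted males lay 33.1 kb from Pramel36 (chr5:93961865-93962249), with folds of 3.45 and 4.42 in the deleted female and male lists. A site at the same distance from Pramel49 (chr5:95627684-95628099) had 3.70 and 4.01 in the deleted female and male lists. Both lie at matching offsets, 41.8 kb from the start of Gm6346 and Gm6348, which are 19204 and 19199 bp long, within a tolerance of 100 bp. Copies can share reads, which was not measured here, and both of these sites are counted among the 11. The tag size in the file headers was 63 bp in deleted and 53 bp in control females, and 59 bp in deleted and 62 bp in control males, and its part in these peaks was not tested.

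**Figure D4:**
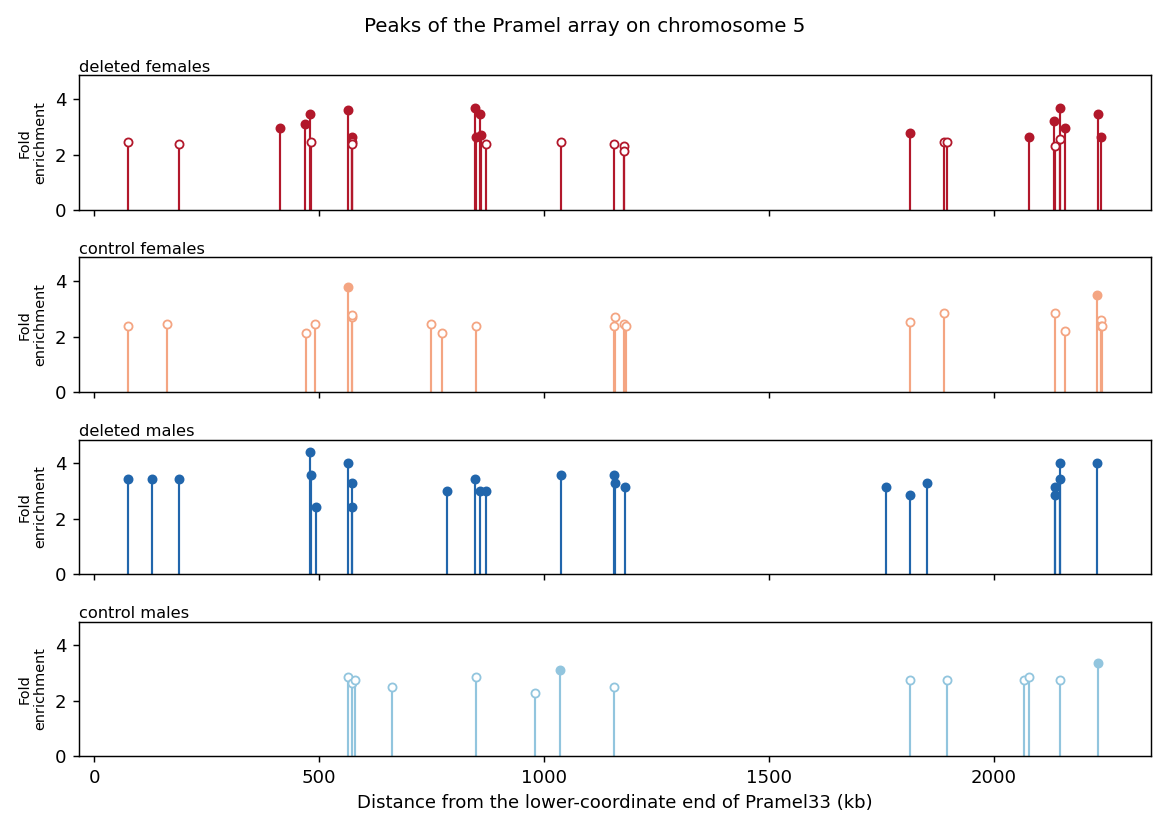
Peaks of the Pramel array on chromosome 5, plotted by distance from the lower-coordinate end of Pramel33 (horizontal, kb) with the authors' fold enrichment (vertical), 1 panel per list. Filled points are within the 88159 strongest peaks of the list and open points beyond them. The deleted panels held 18 filled points in females and 27 in males, against 2 in control females and 3 in control males, and the folds stayed at or below 4.42.

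On chromosome 4, Pramel13 carried the strongest Pramel gain. A peak inside the gene (chr4:144404219-144404989) had folds of 6.32 and 6.29 in the deleted female and male lists and was in neither control list as deposited. A second peak, 12.4 kb from the gene and inside 1700012P22Rik (chr4:144420741-144420941), was gained in females with a fold of 4.27. In males its fold was 4.86 in deleted and 3.59 in control cells. Between them a site 8.98 kb from Pramel13 had folds of 3.32 and 3.72 in the deleted female and male lists and no control counterpart. Pramel12 and Pramel1, at the other end of the array, had strong sites in all 4 lists. The Pramel12 site, inside the gene, had folds of 8.19 in deleted and 7.86 in control females and 9.53 in deleted and 9.73 in control males. The Pramel1 site, 5.01 kb away at the pseudogene Anp32b-ps1, had folds of 9.03 in deleted and 9.30 in control females and 11.4 in deleted and 8.66 in control males.

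Over the 4 families, 19 of 259 sites, 7.34%, were in both deleted lists and neither control list as deposited, and 5 sites, 1.93%, were in both control lists alone. Over all sites of the deposited lists these shares were 0.984% and 5.59%. Of the 19, 13 were Pramel, 4 Psg, 2 Serpinb and 0 Skint sites, and 16 lay in no gene. The Serpinb sites were that at Serpinb3c and a weak site inside Serpinb1a (chr13:32851093-32851315), with folds of 3.45 and 4.29 in the deleted female and male lists. Folds of the 19 ran from 2.38 to 6.32 in deleted females and from 2.43 to 6.29 in deleted males, and 5 of them belonged to a pair of copies. The 5 sites in the control lists alone lay near Serpinb1-ps1, in Skint1, in Skint11, near Pramel47 and near Psg19, with folds of 2.30 to 2.93 in control females and 2.51 to 2.99 in control males. In the equal-length lists, 23 of 182 family sites, 12.6%, were in both deleted lists alone, against 2.66% of all sites, and 1, 0.549%, in both control lists alone, against 3.66%. Without the chromosome 5 array, the numbers as deposited were 8 and 4 of 203 sites, 3.94% and 1.97%.

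The same calls were counted for relatives of the families and for other tandem arrays. Over all callable peaks, 1.12% were gained in females and 0.83% in males. Among serpins other than Serpinb, 2 of 53 callable peaks were gained in females, 3.77%, and 2 of 51 in males, 3.92%. The Ceacam genes, relatives of Psg, had 0 of 23 in females and 1 of 25 in males. The butyrophilin genes, relatives of Skint, had 0 of 29 in females and 0 of 26 in males. Prame and the Oog genes, relatives of Pramel, had 0 of 10 and 0 of 4. The counts of 0 allow shares of up to 13% for Ceacam in females, 10.3% and 11.5% for butyrophilins in females and males, and 30% and 75% for Prame and Oog in females and males. Some relatives lie within the arrays, such as Ceacam3 between Psg16 and Psg29, and their peaks are also counted in the families. Of the callable peaks at the Trav segments of the T cell receptor, 34.8% of 46 were gained in females and 35.5% of 31 in males. At Ighv and Igkv segments 23.4% of 47 and 13.2% of 38 were gained in females and males. For the pheromone receptor genes Vmn2r the shares were 6.9% of 145 in females and 2.17% of 138 in males. These differences between gene lists were not tested.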

How the data were processed

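Peaks were called on 10 ATAC-seq libraries pooled into 4 groups. Per the file headers, MACS 2.1.0.20140616 was run on 1 alignment per group, with no control sample. Its settings moved tags 75 bp upstream, extended them to 150 bp and limited the q-value to 0.05. Per the submitters' processing notes, Trim Galore 0.4.0, Bowtie2 2.2.5, SAMtools, Picard, bcl2fastq, edgeR and MACS2 were used, with mm10 as the build and no roles stated. Peak pileup is a signal height the authors deposited with each peak, fold enrichment is the authors' ratio over the local background, and the −log10 q is the authors' own. They served to describe, rank and limit peaks within a list. A fold shown for several lists is relative to each list's own background, and no difference of folds was computed.

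Lists were limited to 88159 peaks. Equal −log10 q values were ordered by fold, then in a seeded random order, because 2326 peaks in control females and 2395 in control males shared the value at the limit. Overlap meant at least 1 bp. Ranks were compared at sites in both lists. Gene positions came from a RefSeq table of GRCm38.p6, which shares its chromosome sequences with mm10. Members and lists were chosen with earlier results of these data known. Sites were named when gained or lost, when among the 3 best mean ranks per family, or when a member had an end peak in all 4 lists, and other sites were chosen after their values were seen. Intervals and the limit for a count of 0 (3 counts) cover counting error only. The calling rule was run on noisy copies of the deleted female list from which strong peaks had been removed. Those copies shared depth and length, so the run says nothing about lists that differ in depth, length or ties. Alternatives changed list length, margin, threshold, ranking value, overlap, flank and ties. The work used matplotlib 3.10.9, scipy 1.17.1, numpy 2.4.6 and pandas 2.3.3 under Python 3.11.15.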

Additional observations from a re-analysis of the deposited data

How the results depend on the processing

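The numbers of gained peaks moved with the rule, and no setting run gave more lost than gained family peaks in a sex. With all peaks as deposited, 13 were gained and 0 lost in females, and 4 gained and 1 lost in males. In both sexes 3 were gained and 0 lost. Of all peaks 1.1% were gained and 4.41% lost in females, and 0.653% gained and 2.34% lost in males. For both sexes the shares were 0.194% and 0.37%. The family peak lost in males was the Pramel3 site 49.5 kb away. The male Pramel log2 ratio was 0.33, from 46 and 42 peaks in deleted and control cells. Ratios from lists of unequal length, as deposited or at a −log10 q of at least 10, are shares of each list, so they differ from the ratio of the counts. When any peak of the equal-length lists could be called, 58 were gained and 9 lost in females, 59 gained and 20 lost in males, and 22 gained and 1 lost in both, where 15.3% and 16.9% of all peaks were gained and 16.9% and 18.7% lost in females and males, and 3.5% gained and 4.78% lost in both. With only the 22039 strongest peaks callable, 5, 1 and 0 were gained in females, males and both, against 0.259%, 0.118% and 0.0726% of all. With a −log10 q of at least 10 they were 7, 2 and 2, against 0.706%, 0.378% and 0.161% of all. With a flank of 5 kb they were 3, 2 and 2, against 1.12%, 0.83% and 0.299% of all. Family peaks that could be called were not counted for these settings, so no family share stands beside the counts. Without the Pramel genes of chromosome 5, chosen after seeing the data, the male Pramel log2 ratio was 0.08. Other orders of ties and leaving out peaks inside other coding genes were also chosen after seeing the data and kept every number of gained and lost peaks within 1.5 times. Leaving out those peaks did reduce the Psg peaks to 22 and 12 in deleted and control females and 16 and 10 in deleted and control males. Of 72 such log2 ratios under alternatives 70 lay above 0, and the 2 below were those of Skint as deposited, −0.05 in females and −0.62 in males. The overlap rule does not enter these ratios, and leaving out chromosome 5 could change the Pramel ratios only. The 72 therefore include ratios that could not move. By counts alone, Serpinb as deposited and Serpinb males at a −log10 q of at least 10 also had fewer peaks in deleted cells. Which family had the highest ratio changed too. It was Skint in females with a flank of 5 kb (1.58, Pramel 1.0), Psg in females at a −log10 q of at least 10 (1.06, Pramel 0.74) and Psg in males as deposited (0.58, Pramel 0.33). Without the Pramel genes of chromosome 5 it was Skint in females (0.74, Pramel 0.58) and Psg in males (0.53, Pramel 0.08). The cause was not tested. No paired analysis was possible because each group has 1 pooled list, and for the same reason no replicate could be left out. The male lists rest on fewer tags, and the weak chromosome 5 peaks limit what their numbers can show.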
